A study of Mus musculus with 12 samples.

Results

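Mouse iPSCs (induced pluripotent stem cells, obtained by reprogramming somatic cells to a state like that of embryonic stem cells) were compared with cells of the same series that had differentiated for 4 days without a directing protocol. The comparison used 6 of the 12 arrays of the series, chosen by their labels: 3 of undifferentiated iPSCs at day 0 and 3 of spontaneously differentiated cells at day 4. A pair of further groups of 3 arrays, both at day 4, served only for side by side values. One came from an optimized cardiac protocol (its sample description reads "EB + ck", which the labels do not spell out). The other was a population enriched in cardiac progenitor cells by cell sorting for the receptors FLK1 and PDGFRα. The short sample name of the day 0 group is "piPS cell", also not spelled out. Strain, sex, passage, culture medium and any feeder layer are not given in the sources used here. The labels number 3 replicates per group but do not say that they came from separate cultures, so p-values reflect only how far these samples differ, a spread that may be technical.

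Each array measured total RNA from a whole culture with Affymetrix probe sets, and the deposited value of a probe set is a log2 intensity, so a difference of 1 is a 2-fold difference in signal. Levels of different probe sets are not comparable with each other. In RNA from a mixed culture, fewer cells of a type and less RNA per cell cannot be told apart. An array has no read depth, and its precision here is limited by having 3 arrays per group. Within a group the lowest correlation between 2 arrays was 0.989 for iPSCs and 0.992 for spontaneous cells, against 0.973 and 0.966 in the cardiac and sorted groups. The SD of a gene was above 1 log2 unit for 7 of 19938 genes in iPSCs and 14 in spontaneous cells, against 115 and 230 in the other groups. There, cardiac replicate 1 and sorted replicates 2 and 3 had low Kdr signal (5.42, 6.25 and 6.03), in the range of iPSCs or close to it, although Kdr encodes FLK1, 1 of the 2 receptors used for sorting. Those groups were therefore kept out of the estimate of spread for the main comparison.

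Spontaneous replicate 1 stood apart from the other 2 spontaneous arrays. It lay more than 1 log2 unit above both of them in 32 genes and below both in 32 genes, where replicate 2 did so in 1 and 1 and replicate 3 in 1 and 2. Genes higher in replicate 1 included the endocytic receptors Lrp2 and Cubn, the laminin genes Lama1 and Lamc1, the lipoprotein Apob and the epiblast gene Fgf5. Genes lower in it included Tbx20, Foxf1, Msx2, Bmp4, Gata3, Tgfb2 and Igf2. Lrp2, for example, measured 10.23, 8.48 and 8.50 in the 3 spontaneous arrays, and Tgfb2 measured 6.26, 8.14 and 7.92. Without it Lrp2 was no longer called (difference 0.83 in place of 1.41) and Lamc1 was called lower (-1.21 in place of -0.79). For other genes below, the value without this array is given where it ends or starts a call.

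The labelled states matched their defining markers in part. Of 9 pluripotency markers, 8 were lower at day 4, and their mean level went from between 10.98 and 11.18 in iPSC arrays to between 9.06 and 9.56, with all 9 still above the low-signal reference. That reference is 5.57, the 95th percentile of 1190 odorant and vomeronasal receptor genes. Where all arrays of a group lay within it, as for Tbx20, Bmp5, Cer1, Klhl6, Lgr5, Epha7 and Fndc3c1 in iPSCs or Liph, Mael, Taf7l, Hormad1, Sohlh2, Neurod1, Pax6 and Gm5662 at day 4, the difference is against array background, and its size is uncertain. The same holds in part where some arrays of a group lay within it, as for Kdr, Fgf5 and Lpar4 in iPSCs. All 6 measured streak and mesoderm markers were higher, with a mean level of 6.46 to 6.52 in iPSCs and 9.49 to 9.81 at day 4. A further marker chosen for this set, T (brachyury), could not be matched to a measured gene. None of 5 cardiomyocyte markers was higher (6.49 to 6.54 against 6.31 to 6.36). Of 6 fibroblast or feeder markers, 2 were lower at day 4, Dcn and Col1a2, and the mean of the 6 was 6.67 to 7.22 in iPSCs and 6.28 to 6.36 at day 4. The part of fibroblast RNA in the results was not tested.

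Mouse pluripotent cells leave the naive state by shutting down a set of transcription factors that depend on leukaemia inhibitory factor (LIF), pass through an epiblast-like state, and can then form a primitive streak, the embryonic structure in which WNT, BMP, Nodal and FGF signals turn epiblast cells into mesoderm and endoderm. MicroRNAs of the miR-302 and miR-367 cluster are a known feature of the epiblast state. These are short RNAs that repress messenger RNAs by pairing of their seed, bases 2 to 8, with sites in the target.

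The miR-302 and miR-367 cluster is shown here because its hairpins were among the largest rises, and because members of a second cluster, that of miR-17, miR-19 and miR-20, carry a related seed. On GRCm38.p6 the 5 hairpins lie at chr3:127545228-127545807 on the plus strand, within 580 bases and inside the spans of Larp7 and the predicted gene Gm51018. Mature sequences from RefSeq follow, 5′ to 3′, with the seed in capitals.
mmu-miR-302b-3p: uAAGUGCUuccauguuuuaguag
mmu-miR-302c-3p: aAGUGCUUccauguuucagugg
mmu-miR-302d-3p: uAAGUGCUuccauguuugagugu
mmu-miR-367-3p: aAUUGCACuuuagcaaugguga
mmu-miR-20a-5p: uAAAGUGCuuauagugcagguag
mmu-miR-19a-3p: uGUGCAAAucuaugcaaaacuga
mmu-miR-19b-3p: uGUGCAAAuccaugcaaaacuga
The entries of miR-302b-3p and miR-302d-3p share the seed AAGUGCU, and the entry of miR-302c-3p holds the same letters 1 base nearer its 5′ end. The seed of miR-20a-5p, AAAGUGC, holds 6 of those letters (AAGUGC) 1 base further on. miR-19a-3p and miR-19b-3p share the seed GUGCAAA, and miR-367-3p has another, AUUGCAC.

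In the test over all genes, 468 of 19938 genes (2.35%) were higher in spontaneous day 4 cells than in iPSCs and 359 (1.8%) were lower. These shares are the background for the counts per list below. A gene was called where limma's adjusted p was below 0.05 and the mean difference was at least 1 log2 unit. Arrays of the compared groups did not overlap in 826 of the 827 called genes. Over all 19938 genes, 3872 had every spontaneous array above every iPSC array and 4311 had every one below. Non-overlap of a called gene, given below, is therefore a description and not further support. The median difference over all genes was -0.03. The largest rises included the streak and early mesoderm genes Mixl1, Kdr and Eomes. Predicted loci and small RNA genes aside, the largest falls included the naive pluripotency genes Fbxo15, Tcl1 and Nr0b1 and the lipase gene Liph. The predicted locus Gm5662 lay beyond them (difference -4.83). When all 12 arrays entered the fit, 397 genes were higher and 314 lower. 307 of the rises and 243 of the falls were called in that fit and in each fit that left out 1 of the 6 arrays.

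**Figure D1:**
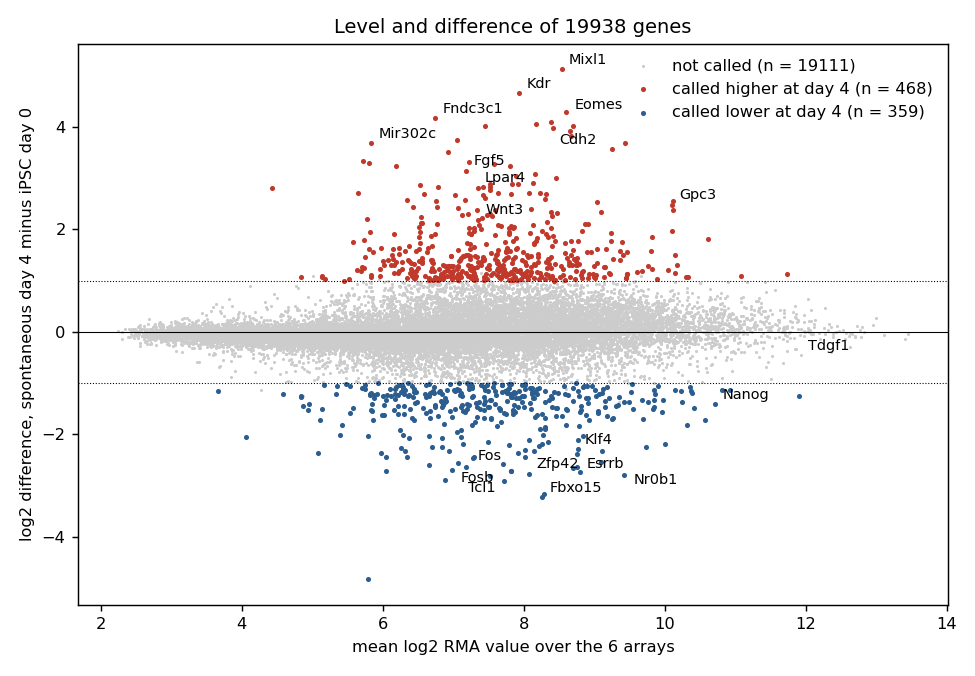
Mean log2 signal over the 6 arrays (x axis) against the log2 difference, spontaneous day 4 minus iPSC day 0 (y axis), for 19938 genes. The 468 genes called higher and 359 called lower are coloured, and the labelled genes include Mixl1 at 5.12 and Fbxo15 at -3.23.

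The naive pluripotency network was lower at day 4 in most of its members. Of 22 measured genes of this list 17 fell and none rose, with a median difference of -2.17, and 17 fell in the fit of 12 arrays. Zfp42 (REX1), a reporter gene of the naive state, measured 9.23, 9.53 and 9.63 in iPSCs and 6.24, 6.54 and 7.28 at day 4. The groups did not overlap, with spontaneous replicate 3 the highest of its group, and the difference was -2.77 (SE 0.24, adjusted p = 0.000175 by limma). Esrrb, an orphan nuclear receptor that sustains self-renewal, measured 9.78, 10.55 and 10.14 in iPSCs and 7.01, 7.30 and 7.97 at day 4, again highest in replicate 3 at day 4, and fell by 2.73 (SE 0.26). Nr0b1, a nuclear receptor co-repressor, fell by 2.80 (SE 0.39) and also kept its highest day 4 value in replicate 3 (8.93, against 7.47 and 7.67).

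The factors Klf4, Klf2 and Klf5 fell, and so did a minority of the genes of LIF signalling. Klf4 measured 9.77, 10.40 and 9.55 in iPSCs and 7.63, 7.56 and 7.66 at day 4, a 4.89-fold lower signal (adjusted p = 0.000157, limma). Klf2 fell by 2.25 (SE 0.15) and Klf5 by 1.21 (SE 0.16). Of 19 measured genes of LIF reception and STAT3 response, 6 fell. They included Bcl3, a nuclear cofactor of NF-kappa B, from 8.01 to 8.25 in iPSCs to 6.66 to 6.84 at day 4, and the kinase gene Pim1, from 9.42 to 10.06 to between 8.30 and 8.64. The shared receptor subunit gene Il6st measured 9.30, 9.68 and 9.34 against 9.01, 9.40 and 9.41, overlapping between groups. Jak2, the only member of this list called higher, lost its call when iPSC replicate 3 or spontaneous replicate 2 or 3 was left out.

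The general pluripotency factors stayed high on the array while falling. Of 18 measured genes of the core list 11 fell and none rose (median -1.20), and 6 were lower in the fit of 12 arrays. Nanog measured 11.39, 11.63 and 11.23 in iPSCs and 10.35, 9.56 and 10.10 at day 4, with no overlap, a difference of -1.41 (SE 0.19, adjusted p = 0.00146, limma). Pou5f1 (OCT4) measured 11.24, 11.31 and 11.57 against 10.64, 9.80 and 10.28. Its difference of -1.13 (SE 0.20) became -0.91 without spontaneous replicate 2, which ended the call. Sox2 fell by 1.82 (SE 0.16), a call not made in the fit of 12 arrays. Sall4, a zinc finger factor of the same network, measured 9.50, 10.08 and 10.13 against 10.60, 10.45 and 10.28, a difference of 0.54 that was not called. Tdgf1, the Nodal co-receptor CRIPTO, differed by -0.46 and was not called.

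Several genes that act on DNA methylation fell. Of 18 measured genes 7 were lower and 1 higher. Tet2, which oxidises 5-methylcytosine, measured 8.47, 8.79 and 8.29 in iPSCs and 6.23, 5.91 and 6.09 at day 4, and fell by 2.44 (SE 0.14). Tet1 fell by 1.70 (SE 0.11) from 10.05 or more to 8.63 or less. Dnmt3l, the catalytically inactive partner of the de novo methyltransferases, fell by 2.54 (SE 0.24). Dnmt3a measured 8.36, 8.71 and 8.50 against 8.68, 8.51 and 8.38, with a 95% interval of the difference from -0.28 to 0.28. Dnmt1, the maintenance methyltransferase, differed by 0.07 (interval -0.13 to 0.27). Dnmt3b measured 8.38, 9.14 and 9.81 against 10.98, 10.19 and 10.04. Its difference of 1.29 was called higher (adjusted p = 0.0326), but the call was lost without any 1 of 5 of the 6 arrays, iPSC replicate 3 being the exception. Cdyl2, a chromodomain protein gene, fell by 2.67 (SE 0.12) and Jarid2, a Polycomb cofactor, by 1.13 (SE 0.13). No other gene among the 30 measured of the Polycomb and chromatin list was called.

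Germline genes made up another falling group. Of 26 measured, 13 fell and none rose, with 11 in the fit of 12 arrays. When genes below the median signal were left out, 4 were called. 7 of the 26 lay within the low-signal reference in both groups. Piwil2, a PIWI protein of the piRNA pathway, measured 8.55, 8.03 and 7.83 in iPSCs and 6.08, 6.12 and 6.03 at day 4, and fell by 2.06 (SE 0.17). Mael, another piRNA factor, fell by 2.37 (SE 0.20) to within the low-signal reference. Taf7l, an X-linked TFIID subunit of germ cells, fell by 1.82 (SE 0.12) and Hormad1, a meiotic axis protein, by 1.32 (SE 0.15). The iPSC arrays differed among themselves here. The RNA helicase gene Mov10l1 measured 8.42, 7.72 and 6.88 and the germ cell factor gene Sohlh2 9.12, 8.12 and 6.62, highest in replicate 1 and lowest in replicate 3 in both, while all spontaneous arrays lay at or below 5.88.

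A part of the genes of the formative and primed epiblast rose. Of 21 measured, 9 rose and 2 fell, and the median difference was 0.81. In the fit of 12 arrays 7 were higher and none lower, and the falls came down to 1 when iPSC replicate 2 or 3, or spontaneous replicate 3, was dropped. Fgf5, the standard marker of the post-implantation epiblast, measured 5.71, 5.29 and 5.81 in iPSCs and 9.67, 8.32 and 8.27 at day 4. Replicate 1 was the highest, the groups did not overlap, and the signal was 8.87-fold higher (adjusted p = 0.000496, limma). Zic2, a zinc finger factor, rose by 1.78 (SE 0.28) and Car14, a carbonic anhydrase, by 2.28 (SE 0.15). Otx2, an early epiblast factor, measured 8.32, 7.67 and 8.54 against 9.80, 8.60 and 8.55, so only replicate 1 stood clear of the iPSC arrays (difference 0.81, adjusted p = 0.13, and 0.40 without that array). Pou3f1 (OCT6) measured 7.57, 7.64 and 7.69 against 7.66, 7.40 and 7.28 and was not called.

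All 5 hairpins of the miR-302 and miR-367 cluster were called higher. Mir302c measured 4.46, 4.13 and 3.39 in iPSCs and 9.71, 6.29 and 7.03 at day 4. Mir302d measured 4.82, 4.92 and 3.99 against 9.82, 6.46 and 7.14. In both, every day 4 array lay above every iPSC array, and spontaneous replicate 1 was well above the other 2. The difference was 3.68 for Mir302c (SE 0.75, adjusted p = 0.00908), 3.34 for Mir302b (SE 0.74), 3.29 for Mir302a (SE 0.76) and 3.23 for Mir302d (SE 0.74), all by limma. Without spontaneous replicate 1 these differences were 2.67, 2.33, 2.23 and 2.22, and all 4 were still called. Mir367 measured 3.22, 3.15 and 2.70 against 8.19, 4.17 and 5.10. Its difference of 2.80 (SE 0.84, adjusted p = 0.0455) became 1.62 without replicate 1. That call did not hold when spontaneous replicate 3 or any 1 of the iPSC arrays was left out. In the fit of 12 arrays only Mir302c was called (adjusted p = 0.0455), and 1 of the 5 was called when genes below the median signal were left out. All iPSC values of the 5 hairpins, and 2 of the 3 day 4 values of Mir367, lay within the low-signal reference, so the sizes of these differences are set against array background and not against a measured level. These probe sets report RNA that contains the hairpin region, not the mature strand.

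**Figure D2:**
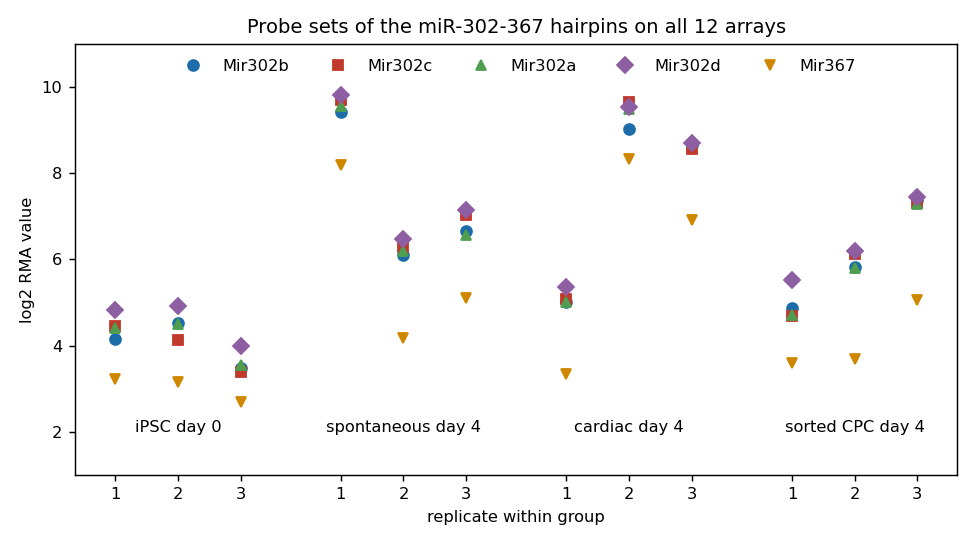
Log2 signal (y axis) of the 5 miR-302 and miR-367 hairpins on each array (x axis, replicate within group), for iPSC day 0, spontaneous, cardiac and sorted day 4. Mir302c sits between 3.39 and 4.46 in iPSCs and at 9.71, 6.29 and 7.03 in spontaneous cells, where all 5 hairpins are highest in replicate 1.

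Larp7, which spans the cluster and encodes a protein that binds 7SK RNA, measured 8.65, 8.63 and 8.57 in iPSCs and 9.32, 9.38 and 9.52 at day 4. It did not overlap between groups, but its difference of 0.79 (SE 0.09) was below the minimum of 1, and spontaneous replicate 1 was its lowest day 4 array, where it was the highest for the hairpins. In the cluster of miR-17, miR-19 and miR-20 3 of 5 hairpins were called lower, and the host transcript Mir17hg was not called (difference 0.13). Mir20a measured 8.07, 8.94 and 7.34 in iPSCs and 7.20, 6.22 and 6.89 at day 4, a difference of -1.34 (SE 0.38, adjusted p = 0.0372). Mir19a differed by -1.35 and Mir19b-1 by -1.43. The count of calls in this cluster was 0 when iPSC replicate 2 or spontaneous replicate 2 or 3 was dropped, 5 when iPSC replicate 3 was dropped, and it was 0 in the fit of 12 arrays. Both clusters were singled out after their values had been seen.

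Streak and nascent mesoderm genes were higher at day 4 in most of the list. Of 23 measured, 14 rose and none fell, and the median difference was 1.43. The count was 7 in the fit of 12 arrays. Mixl1, a homeobox gene of the primitive streak, measured 5.97, 5.86 and 6.10 in iPSCs and 10.84, 11.13 and 11.33 at day 4. The 2 groups were far apart, and the signal was 34.9-fold higher (log2 difference 5.12, SE 0.14, adjusted p = 2.08e-06, limma). Eomes, a T-box factor required for mesoderm and endoderm, measured 6.97, 6.10 and 6.29 against 10.88, 10.74 and 10.60, and rose by 4.29 (SE 0.21).

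Further streak genes rose less. Evx1, a homeobox gene of the posterior streak, measured 7.10, 7.18 and 6.75 in iPSCs and 8.27, 8.75 and 8.74 at day 4, a rise of 1.58 (SE 0.16). Mesp1, the early factor of cardiac mesoderm, measured 5.67, 5.84 and 6.03 against 7.73, 7.43 and 7.03 and rose by 1.55 (SE 0.17). Genes of the anterior streak were highest in spontaneous replicate 1: Lhx1 measured 9.25, 8.30 and 8.02 at day 4 against 6.05 to 6.27 in iPSCs, and Gsc measured 8.95, 8.33 and 8.38 against 7.02 to 7.19. Mesp1, Lhx1 and Gsc were not called in the fit of 12 arrays. Outside the streak list, and named as being among the largest rises, Vrtn, which is linked to vertebral number, rose by 3.29 (SE 0.18) and Klhl6 by 3.74 (SE 0.14).

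Receptors that mark early mesoderm rose unequally. Kdr, the VEGF receptor FLK1, measured 5.50, 5.54 and 5.78 in iPSCs and 9.83, 10.71 and 10.27 at day 4, a 25.4-fold rise (adjusted p = 1.31e-05, limma). Its iPSC values of 5.50 and 5.54 lay within the low-signal reference of 5.57, so the size of this rise is uncertain. Pdgfra was already well above the low-signal reference in iPSCs (8.75, 9.14 and 8.81) and lay between 9.71 and 10.35 at day 4, highest in replicate 1. Its difference of 1.12 (SE 0.17) became 0.96 without spontaneous replicate 1, which ended the call. Aplnr, the apelin receptor, rose by 2.26 (SE 0.23), a call not made in the fit of 12 arrays. Cxcr4, a chemokine receptor, measured 6.74, 6.29 and 7.06 against 10.45, 10.91 and 10.47 and rose by 3.91 (SE 0.20). Nrp1, a co-receptor for VEGF and semaphorins, rose by 4.01 (SE 0.35) and Nrp2 by 1.49 (SE 0.28).

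Part of the lateral plate and cardiogenic list rose, and a smaller part of the sarcomere list did. Of 28 measured genes of the first list 10 rose and none fell, and 10 were higher in the fit of 12 arrays. Tbx20, a T-box factor of the heart field, measured 5.0, 5.10 and 5.40 in iPSCs and 7.62, 9.43 and 9.01 at day 4. All day 4 arrays were higher, replicate 1 least, and the difference was 3.52 (SE 0.39, adjusted p = 0.000557, limma). Foxf1, a forkhead factor of lateral plate, measured 7.08, 6.97 and 6.95 against 8.62, 10.44 and 9.74, and Msx2, a homeobox target of BMP signals, 6.51, 6.48 and 6.18 against 8.26, 9.96 and 9.59. Both were again lowest at day 4 in replicate 1. Isl1, a marker of second heart field progenitors, rose by 1.19 (SE 0.09), from 5.74 to 5.86 in iPSCs to 6.87 to 7.12 at day 4. Gata4 rose by 1.27 (SE 0.15). Hand1 measured 6.99, 7.19 and 7.01 against 7.44, 8.53 and 8.15 and was not called (difference 0.97). Without spontaneous replicate 1 it was called higher (1.27, adjusted p = 0.000772, limma), as it was with array weights or with each array centred on its median.

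None of 26 measured sarcomere and excitation genes fell and 23 were not called. The other 3 rose, a larger share than the 2.35% over all genes. They were Tpm1, a tropomyosin that many cell types use, Gja1, the gap junction protein connexin 43, and Tnnc1, whose call was lost without any 1 of 5 of the 6 arrays, spontaneous replicate 1 being the exception. Tpm1 measured 8.45, 8.36 and 8.25 in iPSCs and 9.52, 10.29 and 10.54 at day 4, and was not called in the fit of 12 arrays. Tnnt2, cardiac troponin T, measured 6.87, 6.76 and 6.81 against 6.33, 6.64 and 6.61, and Nkx2-5 measured 7.63, 7.57 and 7.43 against 7.49, 7.48 and 7.55. Neither was called. In the paraxial list of 20 genes the Notch ligand Dll3 rose by 1.48 (SE 0.18), without a call in the fit of 12 arrays, and the somite factor Tcf15 fell by 1.50 (SE 0.13).

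**Figure D3:**
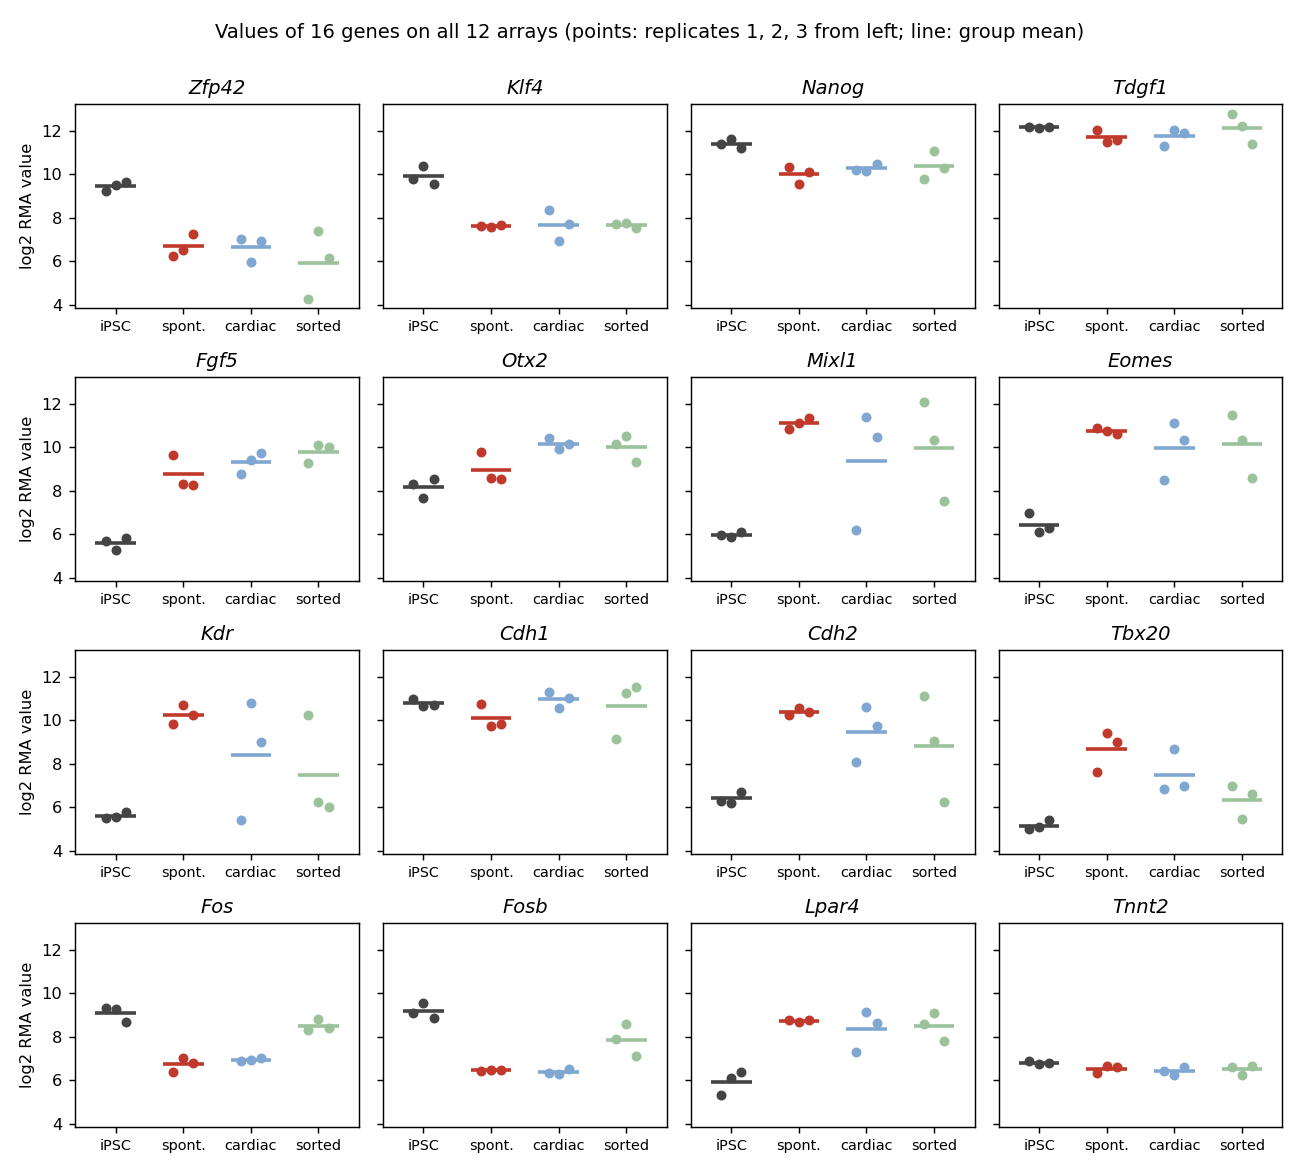
Log2 signal of 16 genes on the 12 arrays, in the order iPSC day 0, spontaneous, cardiac and sorted day 4, with group means as lines. Zfp42 and Klf4 are lower and Mixl1, Eomes, Kdr and Cdh2 are higher on all 3 spontaneous arrays than on any iPSC array, while Tnnt2 stays between 6.33 and 6.87 in both groups.

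A small part of the endothelial list was called, but a larger share of it rose than the 2.35% over all genes. Of 29 measured 4 rose and 1 fell, and 2 rose in the fit of 12 arrays. Flt1, the VEGF receptor VEGFR1, measured 6.41, 6.58 and 6.22 in iPSCs and 8.60, 7.71 and 7.36 at day 4, a rise of 1.48 (SE 0.28). Etv2, the ETS factor that starts the blood and endothelial lineages, measured 6.17, 6.39 and 6.52 against 7.02, 7.48 and 7.87. Its difference of 1.10 became 0.89 without spontaneous replicate 3, which ended the call. Pecam1, an adhesion molecule of endothelium that naive pluripotent cells also carry, measured 8.85, 8.39 and 7.81 against 5.60, 5.92 and 5.82, and fell by 2.57 (SE 0.23).

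Part of each endoderm list rose. In the definitive endoderm list 7 of 19 genes rose and none fell, and 4 did so in the fit of 12 arrays. Several of the 7, such as Cxcr4, Lhx1, Gsc and Dkk1, are also streak or mesoderm genes. Sox17 measured 7.35, 7.53 and 7.46 in iPSCs and 8.73, 8.47 and 8.26 at day 4. Its difference of 1.04 lay at the minimum and fell to 0.92 without spontaneous replicate 1, where it was not called. Nor was it called without iPSC replicate 1, with array weights, or after a second quantile scaling or a loess scaling. The call held with each array centred on its median. Foxa2 measured 6.96, 7.32 and 6.92 against 7.76, 7.30 and 7.07 and was not called. Cer1, a secreted inhibitor of Nodal, BMP and WNT, measured 4.97, 5.18 and 4.84 against 7.61, 6.56 and 5.67. Its difference of 1.62 ranged from 1.12 to 2.09 over the fits without 1 array, and the call was lost without any 1 of the iPSC arrays or without spontaneous replicate 2.

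In the visceral endoderm list 5 of 28 genes rose, against 3 in the fit of 12 arrays. Ttr, which encodes transthyretin, had the largest difference of the list, 1.91 (adjusted p = 0.0029, limma). It was called higher in each fit that left out 1 array (1.54 without spontaneous replicate 1), but not in the fit of 12 arrays. Podxl, a sialomucin of apical membranes, measured 8.51, 8.75 and 8.78 against 10.22, 10.43 and 10.06, and rose by 1.56 (SE 0.12). Afp lay within the low-signal reference in both groups. Apob measured 5.32, 5.36 and 5.59 against 7.68, 6.01 and 5.69, so its high value was on spontaneous replicate 1 alone, and it was not called (difference 1.04, adjusted p = 0.124, and 0.43 without that array). Cubn measured 10.81, 8.97 and 8.75 at day 4 against 8.45, 9.15 and 8.46, a difference of 0.83 that became 0.18 without replicate 1.

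The cadherin pair showed a rise of 1 member without the loss of the other. Cdh2, N-cadherin, measured 6.31, 6.22 and 6.70 in iPSCs and 10.23, 10.58 and 10.39 at day 4, a rise of 3.99 (SE 0.15, adjusted p = 7.90e-06, limma). Cdh11, a mesenchymal cadherin, rose by 4.02 (SE 0.32). Cdh1, E-cadherin, measured 11.01, 10.67 and 10.70 against 10.77, 9.74 and 9.84 and was not called (difference -0.68). Without spontaneous replicate 1, which held the high day 4 value, Cdh1 was called lower (adjusted p = 0.00146, limma), at the minimum difference. Of 23 genes of mesenchymal transition 8 rose and none fell, against 4 in the fit of 12 arrays. Zeb2, a repressor of E-cadherin, rose by 1.24 (SE 0.12) and Twist1 by 1.34 (SE 0.17), both without a call in that fit. Snai1 differed by 1.09, and by 0.99 without spontaneous replicate 1, which ended its call. Vim, vimentin, measured 11.15, 10.85 and 11.36 against 10.91, 11.94 and 11.97 and was not called (difference 0.48, and 0.83 without spontaneous replicate 1).

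Part of the epithelial list rose. In the epithelial list of 30 genes 5 rose, 1 fell and 24 were not called. Krt18 measured 7.96, 7.61 and 7.74 in iPSCs and 9.78, 10.62 and 10.54 at day 4, and Krt8, its partner in simple epithelia, 8.80, 8.69 and 9.30 against 10.75, 11.64 and 11.54. Dsp, desmoplakin, measured 7.27, 7.29 and 7.27 against 9.25, 9.69 and 9.66, a rise of 2.26 (SE 0.13). Cldn6, a tight junction claudin, rose by 1.75 (SE 0.25). The claudin gene Cldn4 fell by 1.06 (SE 0.16), without a call in the fit of 12 arrays, and the keratin gene Krt19 was not called. Epcam measured 8.79, 8.12 and 9.20 against 9.11, 8.39 and 8.60 and was not called. In the trophectoderm list 6 of 20 genes rose, among them Krt8, Krt18 and Eomes, and Gata3, which rose by 2.21 (SE 0.37) from 6.12 to 6.41 in iPSCs to 7.48, 9.05 and 9.03 at day 4. The trophoblast factor Elf5 lay within the low-signal reference in both groups.

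Neuroectoderm genes gave no such group. Of 24 measured 1 rose and 2 fell. Nes, an intermediate filament also found in epiblast and mesoderm, rose by 1.35 (SE 0.14). Neurod1 fell by 1.51 (SE 0.14). Pax6 differed by -1.22, and by -0.94 without iPSC replicate 2, which ended the call. Sox1 measured 8.05, 8.13 and 8.13 against 7.85, 7.86 and 7.74 and was not called.

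Of 45 WNT pathway genes 12 rose and 1 fell, with 7 higher in the fit of 12 arrays and a median difference of 0.41. Among ligands, Wnt3, which starts the streak in the embryo, measured 6.38, 6.08 and 6.30 in iPSCs and 8.25, 8.51 and 8.58 at day 4. The groups were well separated, and the difference was 2.19 (SE 0.12, adjusted p = 3.36e-05, limma). Wnt5a, a ligand of the pathway without beta-catenin, rose by 2.83 (SE 0.30), a call not made in the fit of 12 arrays. Wls, which carries WNT proteins to the cell surface and is in none of these lists, rose by 3.09 (SE 0.19).

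At the receptor level the R-spondin gene Rspo3, whose product amplifies WNT signals, measured 6.29, 6.16 and 5.80 in iPSCs and 8.51, 8.92 and 8.82 at day 4. Its receptor gene Lgr5 rose by 1.80 (SE 0.30) and Fzd5, a Frizzled receptor, fell by 1.66 (SE 0.12). Of the secreted antagonists, Dkk1 measured 6.50, 7.03 and 6.98 against 8.61, 8.97 and 9.03, and Frzb rose by 2.86 (SE 0.34), without a call in the fit of 12 arrays. Sfrp1, another antagonist, was not called (difference -0.89), but was called lower without spontaneous replicate 1 (-1.22). Among targets, Lef1 rose by 2.39 (SE 0.15), Axin2, a feedback inhibitor, by 1.72 (SE 0.16) and Nkd1 by 1.82 (SE 0.27). Ctnnb1, beta-catenin, measured 10.90, 11.03 and 11.14 against 11.29, 11.26 and 11.32 and was not called.

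Of 44 genes in the list for BMP and TGF-beta signalling 12 rose and 1 fell, with 10 higher in the fit of 12 arrays. The largest of these rises, 3.82, was that of Amot, a junction scaffold that is also in the Hippo list. It is described with the X-linked genes below and is not read here as a BMP or TGF-beta gene. Among ligands, Bmp5 measured 5.18, 5.41 and 5.16 in iPSCs and 7.24, 8.43 and 8.13 at day 4, and Bmp2 rose by 1.94 (1.69 to 2.26 when 1 array was left out). Bmp4 measured 8.29, 8.71 and 9.08 against 8.49, 10.06 and 10.12. Replicate 1 lay within the range of the iPSC arrays and the other 2 above it, and Bmp4 was not called with it (difference 0.86) but was called higher without it (1.40). Smad1, which carries the BMP signal to the nucleus, measured 7.26, 7.33 and 7.04 against 9.43, 9.67 and 9.54, a rise of 2.34 (SE 0.11). Among targets and feedback inhibitors, Id3 rose by 2.08 (SE 0.24), Smad6 by 2.04 (SE 0.31) and Bambi by 1.31 (SE 0.21). All 3 were lowest at day 4 in replicate 1, for example Smad6 with 7.98, 9.36 and 9.08.

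Nodal pathway genes split, with 3 of 19 higher and 2 lower. Foxh1, the transcription factor partner of SMAD2, measured 7.80, 7.78 and 8.05 in iPSCs and 9.37, 9.96 and 9.62 at day 4. Cfc1, the co-receptor CRYPTIC, rose by 1.93 (SE 0.16). Pcsk6, a protease that processes the Nodal precursor, fell by 1.36 (SE 0.11). Nodal measured 9.33, 8.65 and 9.35 against 9.03, 8.57 and 8.88 and was not called.

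FGF genes showed a change of ligand. Fgf4, the ligand of naive cells, measured 9.94, 9.65 and 9.90 in iPSCs and 7.55, 7.62 and 7.98 at day 4, and fell by 2.11 (SE 0.14). Fgf8, a streak ligand, measured 6.98, 6.78 and 7.12 against 9.06, 8.57 and 8.57, and Fgf10, a ligand of the second heart field, 6.04, 6.70 and 6.37 against 8.33, 8.79 and 8.89. In all, 6 of 26 genes of this list rose and 1 fell. The feedback genes Dusp6 (difference 0.19) and Spry2 (-0.30) were not called.

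Of 24 Notch genes 4 rose and 1 fell. The target Hey1 measured 6.41, 6.34 and 6.07 in iPSCs and 7.55, 8.15 and 7.91 at day 4, and Nrarp, a feedback inhibitor, rose by 1.28 (SE 0.14). Rbpj, the DNA-binding protein of the pathway, measured 10.43, 10.36 and 10.20 against 9.01, 8.90 and 9.11, and fell by 1.32 (SE 0.10). In the Hedgehog list 3 of 16 rose: Foxf1, the signal transducer gene Smo by 1.32 (SE 0.14) and the effector gene Gli3 by 1.40 (SE 0.15). Ptch1, a receptor that is itself a target, differed by 0.17 and was not called. Cyp26a1, which degrades retinoic acid, rose by 4.09 (SE 0.20) and was the 1 called gene among 18 of the retinoic acid list.

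Guidance and segregation genes formed a broad group. Of 41 measured ephrins, Eph receptors, semaphorins, plexins and related genes 15 rose and 1 fell, with a median difference of 0.73. The count was 11 in the fit of 12 arrays and 10 to 16 when 1 array was left out, lowest without spontaneous replicate 2. Efna3, an ephrin, measured 7.64, 7.29 and 7.74 in iPSCs and 9.51, 9.37 and 9.10 at day 4, a rise of 1.77 (SE 0.15). The receptor gene Epha7 measured 5.44, 5.50 and 5.23 against 6.96, 6.81 and 6.87. Epha1 rose by 1.91 (SE 0.30) and was highest in spontaneous replicate 1. Epha2, a receptor of naive cells, measured 10.03, 10.13 and 9.93 against 8.61, 8.39 and 8.72, and fell by 1.46 (SE 0.11). Unc5b, a netrin receptor, rose by 1.74 (SE 0.19).

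Lysophospholipid signalling genes gave 3 calls among 20. Lpar4, a receptor for lysophosphatidic acid (LPA), measured 5.34, 6.10 and 6.37 in iPSCs and 8.79, 8.69 and 8.77 at day 4. The day 4 arrays were nearly equal and well above the iPSC arrays, a difference of 2.82 (SE 0.23, adjusted p = 0.000128, limma). Lpar6, a second LPA receptor, measured 7.73, 7.65 and 7.51 against 8.86, 8.97 and 9.13, a rise of 1.36 (SE 0.11). Liph, a phospholipase that makes a form of LPA, measured 8.63, 8.15 and 8.19 against 5.43, 5.44 and 5.45. It fell by 2.89 (SE 0.13) to within the low-signal reference. Lpar1 differed by 0.37 and was not called.

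**Figure D4:**
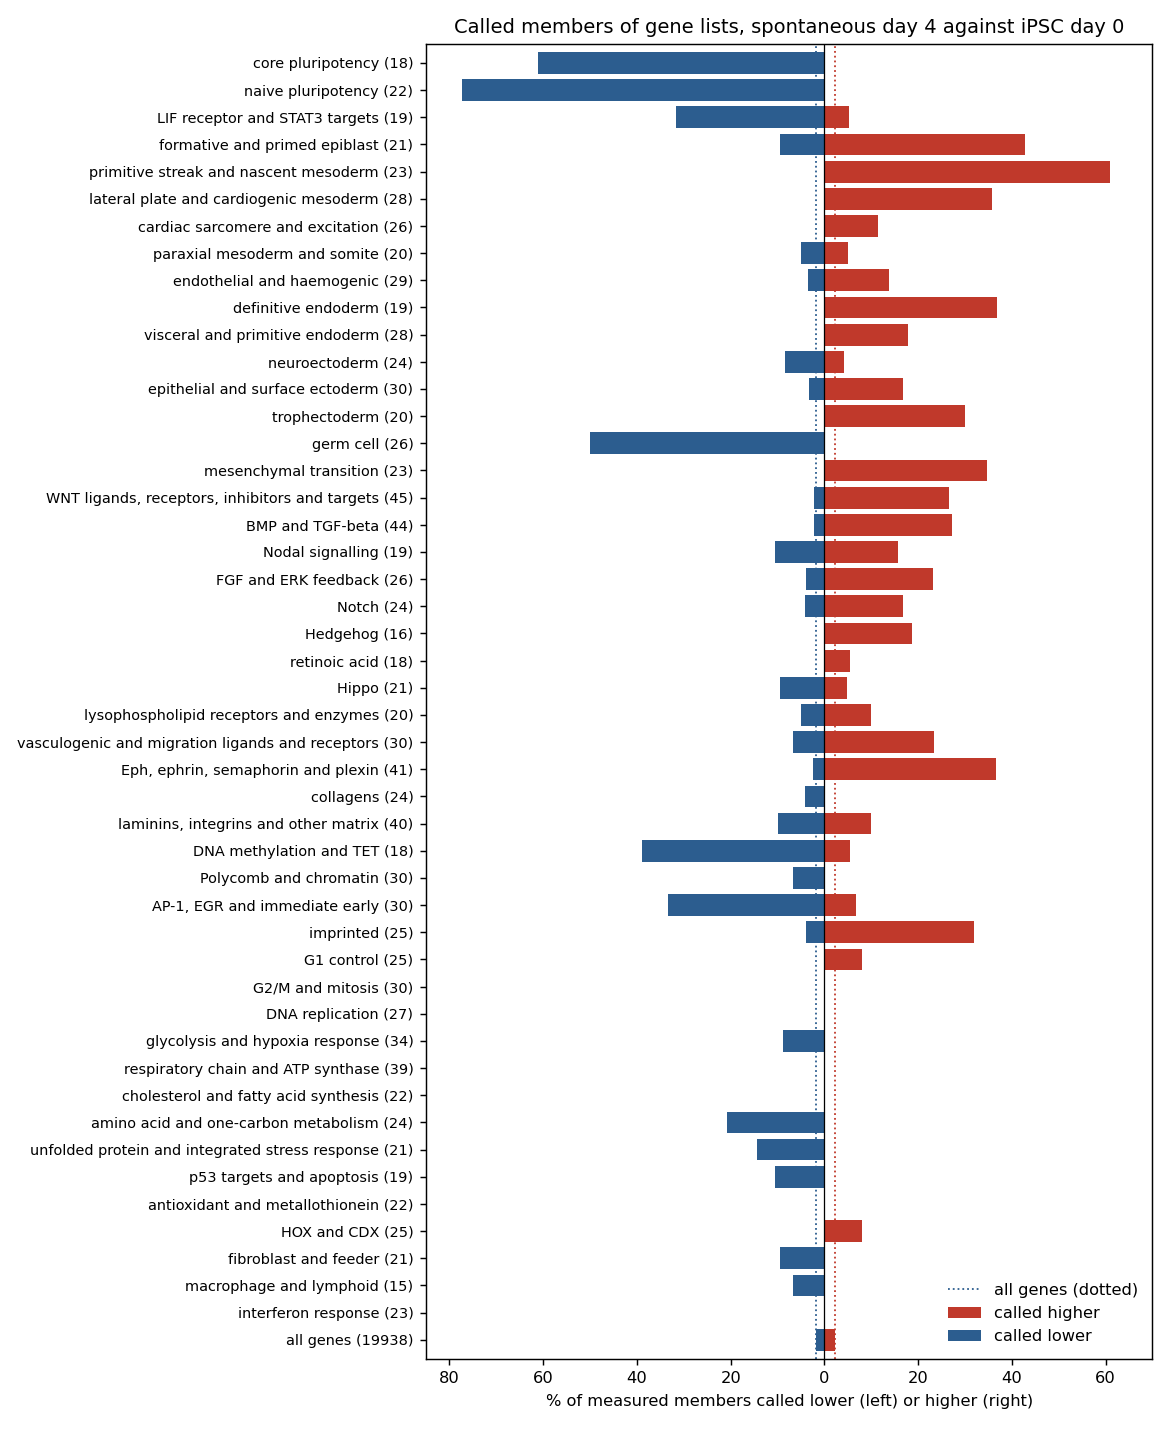
Counts of genes called higher (right) and lower (left) at day 4 per list of at least 15 measured genes, as a percentage of measured members, with all genes as the reference row (2.35% and 1.8%). Naive pluripotency stands out on the lower side with 17 of 22, and the streak list on the higher side with 14 of 23.

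Matrix genes moved in both directions. In the list of laminins, integrins and other matrix 4 of 40 rose and 4 fell. Has2, which makes hyaluronan, measured 5.92, 5.81 and 6.72 in iPSCs and 9.66, 10.51 and 10.44 at day 4, and Vcan, versican, which binds hyaluronan, rose by 1.92 (SE 0.23). The basement membrane gene Nid1 fell by 1.53 (SE 0.12) and the laminin receptor subunit Itga6 by 1.25 (SE 0.10). Of 24 collagens only Col1a2 was called, lower by 1.01, and the call ended when iPSC replicate 1, iPSC replicate 3 or spontaneous replicate 3 was dropped. Lama1 measured 9.75, 10.31 and 10.45 against 10.63, 9.27 and 9.13 and was not called (difference -0.50, and -0.97 without spontaneous replicate 1).

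Some immediate early genes, which respond to signals within minutes, were lower at day 4. Of 30 measured 10 fell, 2 rose and 18 were not called. The count of falls was 6 in the fit of 12 arrays and 8 to 11 when 1 array was left out. Fosb measured 9.11, 9.55 and 8.88 in iPSCs and 6.45, 6.48 and 6.46 at day 4, a 6.58-fold lower signal (adjusted p = 3.58e-05, limma). Fos measured 9.34, 9.28 and 8.67 against 6.37, 7.03 and 6.80, a difference of -2.36 (SE 0.21). All spontaneous arrays lay below all iPSC arrays for both genes, nearly equal for Fosb and more spread for Fos. Egr1 fell by 1.51 (SE 0.18), Arc by 1.47 (SE 0.09) and the phosphatase gene Dusp1 by 1.37 (SE 0.17). In the Hippo list, where 1 of 21 genes rose and 2 fell, the matricellular gene Ccn2 fell by 2.20 (SE 0.17). Myc measured 7.14, 7.45 and 7.65 against 8.70, 9.64 and 9.44, a rise of 1.85 (SE 0.24). Jund differed by -0.76 and Klf6 by -0.22, and neither was called.

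Promoters of 2 of these genes are shown because they fell together and hold TGACG, the core letters of the cAMP response element. The 250 bases before the annotated start, from RefSeq on GRCm38.p6, are given 5′ to 3′ on the gene's strand, with TGACG or its reverse complement CGTCA in capitals. Fos lies on the plus strand, with this window at chr12:85473640-85473889, and Nr4a1, a nuclear receptor, on the plus strand at chr15:101266596-101266845.
Fos: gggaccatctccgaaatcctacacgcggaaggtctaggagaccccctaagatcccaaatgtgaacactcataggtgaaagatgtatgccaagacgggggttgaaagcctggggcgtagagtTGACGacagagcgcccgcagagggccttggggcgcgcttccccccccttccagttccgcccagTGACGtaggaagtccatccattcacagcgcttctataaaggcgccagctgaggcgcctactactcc
Nr4a1: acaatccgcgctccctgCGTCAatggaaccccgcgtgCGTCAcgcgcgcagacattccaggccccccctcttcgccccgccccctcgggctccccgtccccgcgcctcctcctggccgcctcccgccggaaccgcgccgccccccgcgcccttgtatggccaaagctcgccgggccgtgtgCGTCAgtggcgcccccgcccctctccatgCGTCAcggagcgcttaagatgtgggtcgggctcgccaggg
Fos holds 2 matches and Nr4a1 holds 4. Over 32851 promoter windows of 300 bases, 20.8% hold at least 1 match on either strand and 0.231% hold 4 or more. Of the 10 fallen immediate early genes 8 had a window in the table and 6 of those held the letters, as did 9 of 15 among the members that were not called. Here a gene counts if any of its windows holds a match, and some uncalled genes have several windows. The 20.8% counts single windows, so the shares are not in the same unit. The uncalled relatives Nr4a2 and Nr4a3 also hold 4. A match is a description of letters and not of a bound site. Nr4a1 measured 9.56, 9.61 and 9.85 in iPSCs and 8.16, 8.59 and 8.94 at day 4, a difference of -1.11 (SE 0.19) that became -0.91 without spontaneous replicate 1, which ended the call.

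Fos was the only gene called between spontaneous and sorted day 4 cells (1 of 19938, 0.00502%, with 2310 genes at an unadjusted p below 0.05). The sorted arrays measured 8.30, 8.84 and 8.41, all above the spontaneous values and overlapping the iPSC values, and the difference spontaneous minus sorted was -1.78 (SE 0.21, adjusted p = 0.0280, limma). No gene was called in this contrast without spontaneous replicate 3 or sorted replicate 1, and 18 were called without spontaneous replicate 1. Without sorted replicate 2 the single call was Zfp229, and without sorted replicate 3 the calls were Fos, Fosb, Mir680-2 and Prkaa2. Fosb measured 7.90, 8.59 and 7.10 in sorted cells and was not called with all arrays, but was called lower in spontaneous cells without sorted replicate 3 (-1.79, adjusted p = 0.0225, limma). The sorted cells had been through cell sorting, the spontaneous and iPSC samples are not labelled as sorted, and the part of cell handling was not tested. Between spontaneous and cardiac day 4 cells no gene was called (0%) by limma, with 743 at an unadjusted p below 0.05. One gene, Asb12, was called in that contrast without spontaneous replicate 1.

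Since both those groups and the spontaneous group are read against the same iPSC arrays, their values are only set side by side. The mean level of the 468 risen genes was 6.77, 6.81 and 6.89 on the iPSC arrays and 8.34, 8.51 and 8.45 on the spontaneous arrays. It was 7.55, 8.65 and 8.09 on the cardiac arrays and 8.18, 7.90 and 7.61 on the sorted arrays. The mean of the 359 fallen genes was 8.42, 8.31 and 8.22 in iPSCs and 6.82, 6.71 and 6.88 in spontaneous cells, against 7.51, 6.80 and 7.07 in cardiac and 6.53, 7.21 and 7.13 in sorted cells. Kdr measured 5.42, 10.81 and 9.01 on the cardiac arrays and 10.23, 6.25 and 6.03 on the sorted arrays, a wider spread than on the spontaneous arrays. Ttr, a visceral endoderm product, measured 8.45, 7.57 and 7.08 on spontaneous arrays and 11.34, 9.56 and 10.04 on cardiac arrays.

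A larger share of X-linked than of autosomal genes rose, a count added after the values had been seen. Of 739 measured X-linked genes 64 (8.66%) rose, against 403 of 19106 autosomal genes (2.11%). The next highest shares were 4.03% on chromosome 18 and 3.82% on chromosome 3. Of the X-linked genes 16 fell (2.17%), against 1.79% on autosomes. Among genes whose mean over the iPSC arrays lay above the low-signal reference, 53 of 413 on the X chromosome rose (12.8%), against 2.59% on autosomes. The count of 64 ranged from 59 to 67 when 1 array was left out and was 57 in the fit of 12 arrays.

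The median level of X-linked genes relative to autosomes also differed between the groups, by an amount that depended on the genes included. Over all measured genes the X median minus the autosomal median was -0.72, -0.76 and -0.67 on the iPSC arrays and -0.65, -0.63 and -0.66 on the spontaneous arrays, a difference of the means of 0.07 log2 units. The groups did not overlap, but the gap between their nearest arrays was small. For genes above the reference in iPSCs it was -0.03, -0.01 and -0.02 on the iPSC arrays and 0.21, 0.25 and 0.34 on the spontaneous arrays, a difference of 0.29. That value compares medians over levels of different probe sets. The median of the gene by gene differences of the same genes was smaller, 0.12 on the X chromosome and -0.02 on autosomes. In both cases an exact two-sided permutation test gave p = 0.1, the smallest value that 20 arrangements allow. Over all measured genes the cardiac arrays measured -0.69, -0.69 and -0.65 and the sorted arrays -0.66, -0.69 and -0.60. For genes above the reference in iPSCs the cardiac arrays measured 0.25, 0.24 and 0.23 and the sorted arrays 0.10, 0.28 and 0.07. All of these lay above every iPSC array, so the larger shift was not particular to the spontaneous cells. Xist, the RNA that silences an X chromosome, measured 4.27, 4.24 and 4.28 in iPSCs and 4.14, 3.91 and 4.33 at day 4, within the low-signal reference on every one of these arrays. The Y-linked Eif2s3y measured 6.89, 7.01 and 7.30 against 7.22, 7.24 and 7.71, and none of 8 measured Y-linked genes was called.

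**Figure D5:**
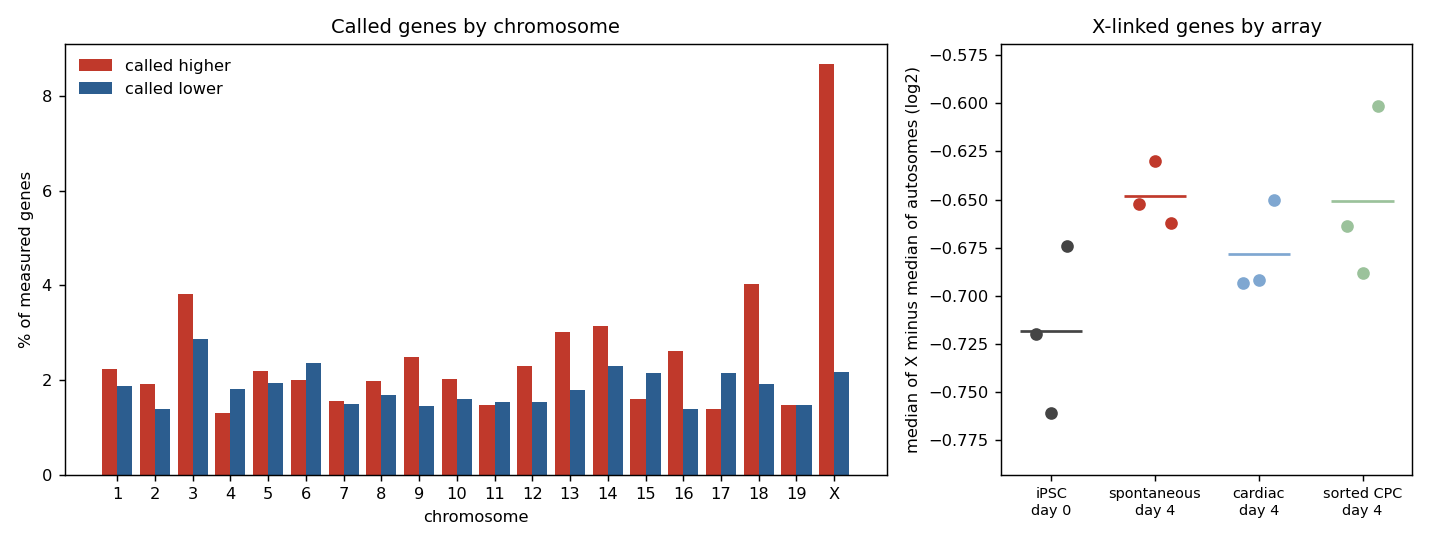
Left, percent of measured genes called higher or lower, per chromosome (bars). Right, the X median minus the autosomal median over all measured genes on each array in log2 units (points, with group means as lines). The X chromosome has the highest share of genes called higher, 8.66%, and the 3 spontaneous arrays lie between -0.66 and -0.63 where the iPSC arrays lie between -0.76 and -0.67.

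The risen X-linked genes had varied functions. Fndc3c1 measured 4.67, 4.28 and 5.04 in iPSCs and 9.04, 8.76 and 8.69 at day 4. Amot, angiomotin, a junction scaffold that binds YAP, measured 6.47, 7.08 and 6.72 against 10.37, 10.69 and 10.66, a rise of 3.82 (SE 0.16). Gpc3, a glypican that modulates WNT and Hedgehog ligands, measured 9.26, 8.92 and 8.42 against 11.12, 11.60 and 11.33. The groups did not overlap in any of these 3 genes, as in 826 of the 827 called genes. Lpar4 also lies on the X chromosome. Dock11, an exchange factor for CDC42, rose by 2.40 (SE 0.15), the chromatin remodeller gene Smarca1 by 1.39 (SE 0.15) and the transcriptional coactivator gene Cited1 by 1.25 (SE 0.16). Stag2, a cohesin subunit, rose by 1.05 (SE 0.09), which was under the minimum after the quantile or loess scaling was repeated. Falling X-linked genes included Nr0b1 and Taf7l.

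Several lists of growth and metabolism genes gave no call. No gene of the lists for mitosis (30 measured), DNA replication (27), respiratory chain (39), cholesterol and fatty acid synthesis (22), interferon response (23) or housekeeping (13) was called by limma. At an unadjusted p below 0.05 these lists had 11, 6, 14, 8, 10 and 4 genes, against 7087 of all 19938 genes. The replication gene Pcna differed by 0.02 (95% interval -0.29 to 0.33). In the G1 control list 2 of 25 genes rose, a larger share than the 2.35% over all genes. They were Myc and the cyclin gene Ccnd2, which rose by 1.50 (SE 0.22). Of 34 glycolysis and hypoxia genes 3 fell, a larger share than the 1.8% over all genes. The phosphofructokinase gene Pfkp fell by 1.68 (SE 0.21) and Pdk1, which restrains pyruvate oxidation, by 1.64 (SE 0.22). The other was Aldoc, whose call did not hold in 4 of the 6 fits that left out an array (iPSC replicate 1 or 2, spontaneous replicate 2 or 3). Pfkp measured 10.40, 10.39 and 9.54 in iPSCs and 8.39, 8.48 and 8.43 at day 4.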

How the data were processed

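RNA of 12 mouse samples was hybridised to Affymetrix arrays. Per the labels' protocols, total RNA was isolated on RNeasy columns and biotinylated cDNA was made from 300 ng. Per the submitters' processing notes, the values were made with RMA (background correction, quantile normalization and probe summary) in Affymetrix Expression Console 1.3.1, so the authors' deposited table holds log2 intensities. The sources used here do not name the genome build of the probes. Of 35557 probe sets, 21789 were paired with exactly 1 gene symbol, 1621 with several and 12147 with none. For a gene with several probe sets the one with the highest mean over the 12 arrays was kept, giving 19938 genes.

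The main fit used limma 3.58.1 (R 4.3.3; lmFit, eBayes with trend) on the 6 arrays compared, with Benjamini-Hochberg adjustment over all genes. The 2 contrasts between day 4 groups came from the fit of all 12 arrays. The call rule was an adjusted p below 0.05 and a log2 difference of at least 1. Group errors are standard errors of the difference, with 3 arrays per group. The script was tested on simulated data. The comparison's gene lists were chosen with earlier results of these data known. Genes named were those of a fixed list, the 20 largest rises and 20 largest falls among called genes with non-overlapping arrays (leaving aside predicted loci, small RNA, odorant and vomeronasal receptor genes), and per list up to 5 called and up to 2 uncalled members. Other genes named (such as Larp7, Wls, Evx1, Isl1, Nr4a1, Asb12, the microRNA genes, the X-linked genes and further list members) were chosen after their values were seen. Replicate numbers were checked for pairing: same-numbered arrays of the 2 groups had correlations of their deviations of 0.07, -0.05 and 0.18, so they were not treated as pairs. Alternatives were the fit of 12 arrays, the replicate block, other variance settings, scalings and filters, and leaving out each array. Sequences came from RefSeq tables on GRCm38.p6.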

Additional observations from a re-analysis of the deposited data

Results flagged for a closer look

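Fos differed between the spontaneous and sorted day 4 groups by -1.78 on the log2 scale (SE 0.21, adjusted p = 0.0280 by limma in the fit of 12 arrays). It was lower in 3 of 3 spontaneous arrays than in any sorted array. It was the single gene called in that contrast, and it was not called in a fit of those 6 arrays alone.

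Probe sets that match several genes were not used in the comparisons. Of 1621 such probe sets, 56 were lower (3.45%) and 7 higher (0.432%) in spontaneous day 4 cells than in iPSCs by the same rule. Of 12147 probe sets with no listed gene, 33 were lower (0.272%) and 37 higher (0.305%). These values name no gene.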

How the results depend on the processing

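Under all scalings, variance settings and filters tried, other than those named next, the counts of 468 rises, 359 falls and 64 X-linked rises stayed within 1.5 times. Without a minimum difference there were 2471 rises, 1956 falls and 152 X-linked rises. With a test against a difference of 1 (limma's treat) there were 91, 59 and 14. Leaving out 1 array gave 431 to 519 rises, 323 to 386 falls and 59 to 67 X-linked rises. With the replicate block the counts were 466, 361 and 65, with 0 genes called against the cardiac and 1 against the sorted group. Against the cardiac group array weights gave 3 genes and leaving out 1 array 0 to 1. Against the sorted group array weights gave 0, the 6 arrays alone 0, and leaving out 1 array 0 to 18, where the 18 came without spontaneous replicate 1. Alternatives were followed gene by gene for 214 of the named genes. Of their 3605 values, 0 turned the sign of a called gene, 38 turned that of 11 uncalled genes, and 226 lost the call, 106 of them under treat. Of the 166 called among these genes 109 lost the call at least once. The alternatives for the X-linked count and the microRNA clusters were added after seeing the data. The cause of these changes was not tested. With 3 arrays per group and no read depth, small differences near the low-signal reference were not resolved.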

Other observations

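Imprinted genes, which are expressed from 1 parental copy, were often higher at day 4. Of 25 measured 8 rose and 1 fell, with 8 higher in the fit of 12 arrays. Peg3, a zinc finger gene, measured 6.94, 7.89 and 7.60 in iPSCs and 10.68, 11.32 and 11.09 at day 4, a rise of 3.56 (SE 0.25, adjusted p = 6.83e-05, limma). Phlda2, a regulator of placental growth, measured 8.70, 8.56 and 9.25 against 10.73, 11.93 and 11.53. Peg10 rose by 1.82 (SE 0.22), Ndn, necdin, by 1.76 (SE 0.13) and Grb10, an inhibitor of insulin receptor signalling, by 1.27 (SE 0.20). Igf2, a fetal growth factor, measured 8.72, 10.41 and 9.86 at day 4, lowest in replicate 1, and rose by 2.68 (SE 0.36). The fallen member was Dcn, which also belongs to the fibroblast list. Cdkn1c, a cyclin kinase inhibitor, measured 8.18, 8.21 and 8.65 against 8.46, 9.78 and 9.56. It was not called in the main fit, but was called higher without spontaneous replicate 1 and with array weights.

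Part of the amino acid list and of the stress response list was lower, in each a larger share than the 1.8% over all genes. Of 24 amino acid and one-carbon genes 5 fell, with 3 in the fit of 12 arrays and 2 to 7 when 1 array was left out (2 without iPSC replicate 2). Mthfd2, a mitochondrial folate enzyme, measured 9.38, 9.83 and 9.60 in iPSCs and 8.14, 8.29 and 8.22 at day 4. The glutamine carrier gene Slc1a5 fell by 1.10 (SE 0.12). Of 21 genes of the stress response list 3 fell, with 2 in the fit of 12 arrays. Among them Trib3, a pseudokinase of the stress response, fell by 1.46 (SE 0.21).

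The lowest difference of all genes belonged to a predicted locus, Gm5662, which measured 8.74, 9.15 and 6.74 in iPSCs and 3.43, 3.13 and 3.58 at day 4. It was named after its values were seen. Without spontaneous replicate 1 the genes called against the sorted group were Asb12, Dok4, Fam122b, Fos, H1f2, H60b, Hey2, Ifngr2, Igf2, Klf8, Lxn, Magi3, Mest, Morc4, Padi3, Spin2c, Stard8 and Zfp711.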
